A study of Mus musculus with 4 samples.

Results

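The KCl response of the Brg1 conditional knockout was set against that of wild type gene by gene, over the 10000 genes that reached 5 FPKM in at least 1 of 4 libraries, of 22552 genes in the deposited table. FPKM counts sequenced fragments scaled to transcript length and library size, so it can be compared between genes. For each gene the log2 response to KCl (KCl over basal, 1 added to both values) was taken in each genotype. The wild-type response was then subtracted from the knockout response, and this difference in response is the quantity described throughout. Induced genes were chosen on the mean of both responses (2-fold or more), so that both genotypes counted in the choice. A large response in 1 genotype could still bring a gene in. An induced gene was called blunted where its response was at least 1.5-fold smaller in the knockout, enhanced where it was at least 1.5-fold larger, and unchanged where the responses lay within 1.2-fold of each other. Unchanged is a class of size and does not mean that equality was shown.

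All 4 libraries came from primary cultured cortical neurons of mouse embryos (E16.5), and all cultures are described as pretreated on day 5 in vitro with 1 µM TTX, a sodium channel blocker, and 100 µM APV, an NMDA receptor antagonist. The groups were wild type at basal KCl, wild type with 50 mM KCl for 6 h on day 6, Brg1-cko (BAF53bCre Brg1F/F, here cKO) at basal KCl, and the same genotype with KCl. BAF53b is a neuronal gene, so cells of the culture other than neurons may keep Brg1. Each group had 1 library, with no replicate, and the number of animals or cultures behind it is not given in the sources used here. No test, standard error or p-value is therefore possible, and every statement below describes these 4 libraries. Intervals in brackets are 95% intervals for counting error alone, from approximate fragment numbers.

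Raised extracellular KCl depolarizes neurons, opens voltage-gated calcium channels and sets off kinase cascades that reach the nucleus. Immediate early genes, many of them transcription factors of the Fos, Jun, Egr and Nr4a families, respond first without new protein synthesis, and late-response genes such as Bdnf follow and encode secreted factors, receptors and synaptic proteins. Brg1 (Smarca4) is an ATPase of the BAF complex, which moves nucleosomes at promoters and enhancers.

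In wild type Smarca4 was at 34.0 FPKM without and 28.5 with KCl, and in the cKO at 10.5 without and 10.4 with KCl, so both knockout libraries were lower than both wild-type ones. Depth was approximated at 20500000 to 24000000 fragments a library, where 1 FPKM on a 2-kb transcript stands for 40.9 to 48.0 fragments. Genotype and sex of the cultures cannot be told apart: wild type had Xist at 83.3 FPKM (basal) and 78.1 (KCl), against 0.14 and 0.29 in the knockout, and Eif2s3y, which is Y-linked, showed the reverse pattern at 0.052, 0, 32.9 and 39.0. Genes on the X chromosome made up 3 of the 68 blunted, 7 of the 188 unchanged and 1 of the 41 enhanced genes described below, and 3.48% of all genes measured. Levels of cell type markers also differed with genotype, and in bulk RNA fewer cells of a type and less RNA per cell cannot be told apart. Summed over 15 excitatory neuron markers the level was 787, 651, 756 and 434 FPKM (wild type without and with KCl, then cKO without and with KCl). In the same order 12 microglia markers summed to 284, 349, 573 and 763 FPKM, and all 12 were higher in the cKO in both conditions. Vascular and fibroblast markers summed to 28.5, 43.6, 73.6 and 150 FPKM, with 9 of 12 higher in the cKO at basal KCl and 10 of 12 after KCl, while the endothelial marker Cldn5 was at 0 in every library.

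Over all 10000 genes the responses of the genotypes lay close together. The median difference was 0.02 (log2; interquartile range −0.12 to 0.14) and the central 95% of genes lay between −0.57 and 0.44. The response was at least 1.5-fold lower in the cKO for 242 genes (2.42%) and at least 1.5-fold higher for 104 (1.04%), and it lay within 1.2-fold for 7875 (78.8%). Among 4391 genes that hardly responded to KCl (mean log2 response within 0.25) the standard deviation of the difference was 0.22, with 57 genes past 1.5-fold lower and 19 past 1.5-fold higher. These genes show how far apart 4 single libraries lie for genes with little response. The counting interval of a single gene was 0.24 wide to either side at the median.

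Induced genes spread far more widely. There were 455 of them (4.55% of all genes), and 321 were at least 2-fold higher with KCl in both genotypes. The response was blunted in 68 (14.9%), unchanged in 188 (41.3%) and enhanced in 41 (9.01%), and between these classes 100 were slightly lower and 58 slightly higher. The median difference was −0.13 (interquartile range −0.38 to 0.22), and 277 of the 455 lay below 0. Past 2-fold the sides were nearly even, with 19 genes lower and 20 higher. The wider spread thus ran in both directions, with more genes on the lower side at 1.5-fold. That balance depended on the rule: chosen on the wild-type response the classes held 108 blunted and 19 enhanced genes, and chosen on the cKO response 36 blunted and 57 enhanced genes, with a median of 0.06. Compared by FPKM gained with KCl, 105 induced genes gained at least 1.5-fold less in the cKO and 124 at least 1.5-fold more. Small RNAs made up 9 of the 68 blunted and 6 of the 41 enhanced genes. Their short transcripts make FPKM unsteady, and they are not named further.

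**Figure D1:**
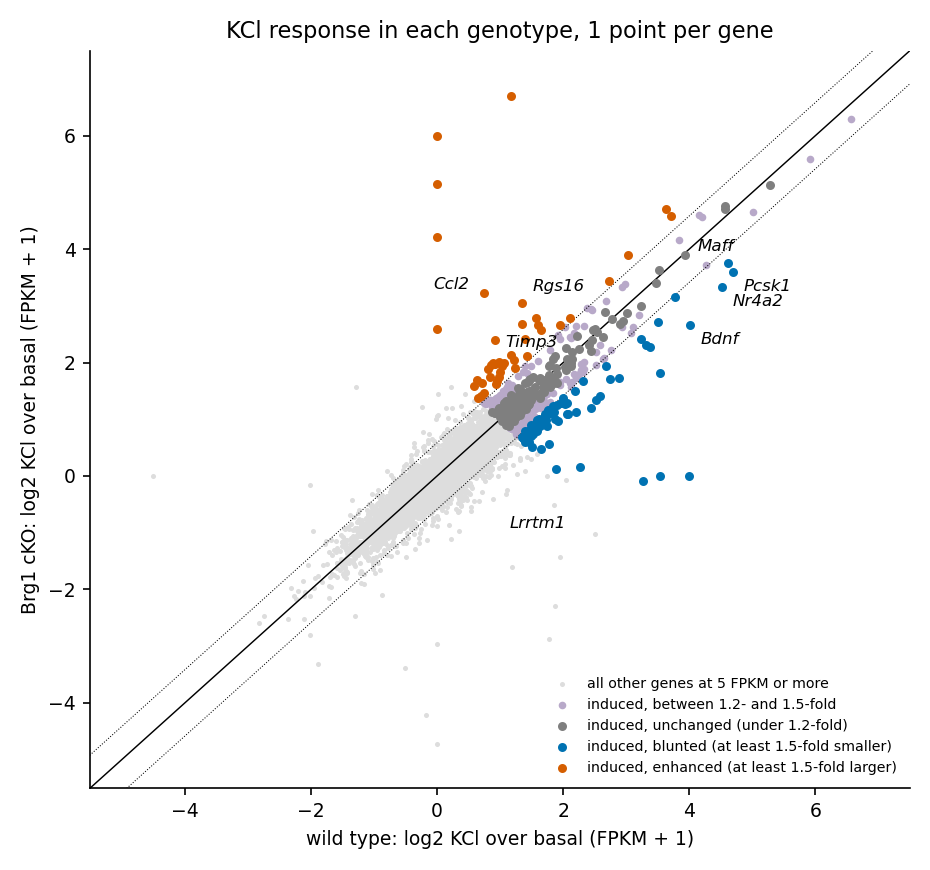
KCl response of each gene in wild type (x axis) and in the Brg1 cKO (y axis), each as log2 of KCl over basal after adding 1 FPKM, with 1 point per gene. The solid line marks equal responses and the dotted lines a 1.5-fold difference. The 68 blunted genes lie below the lower dotted line and the 41 enhanced genes above the upper one, on both sides of a band holding the 188 unchanged genes.

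The lean toward blunting was seen among moderately induced genes. For a mean log2 response of 1 to 1.5 there were 273 genes with a median difference of −0.14, and 38 were blunted and 17 enhanced. Between 1.5 and 2 the 87 genes had a median of −0.15, with 16 blunted and 9 enhanced. For the 66 genes between 2 and 3 the median was −0.04 (8 blunted, 9 enhanced), and for the 29 genes at 3 or more it was −0.03 (6 blunted, 6 enhanced, 7 unchanged). The strongest responders thus held as many enhanced as blunted genes. Near the thresholds the classes meet gradually: Cpeb2 and Ubn1, both at −0.59, were the last blunted genes and Rem2 at −0.58 the first outside, while Atoh8 at 0.58 lay just outside and S100a4 at 0.66 just inside the enhanced class.

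**Figure D2:**
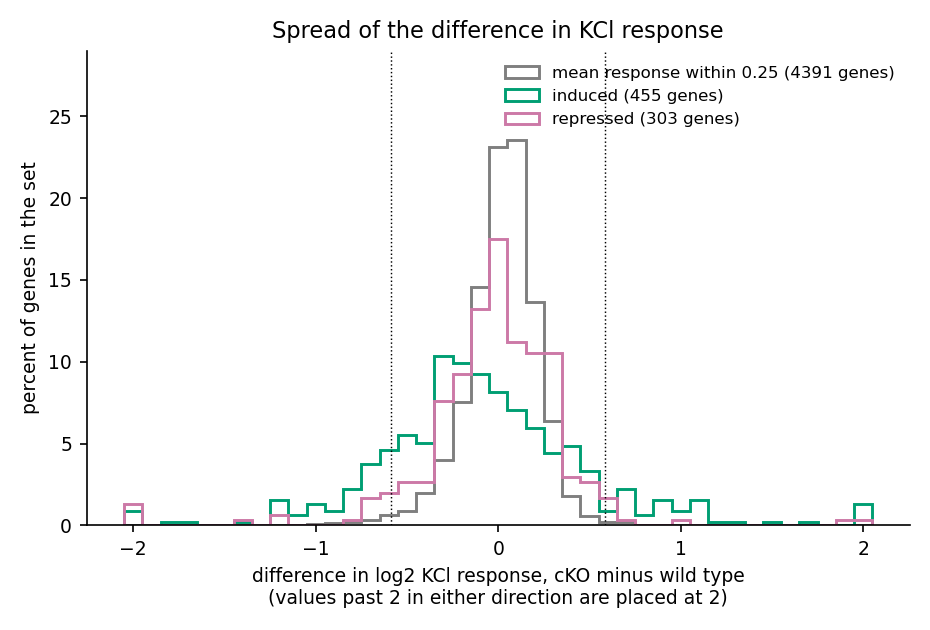
Distribution of the difference in log2 KCl response (cKO minus wild type, x axis) as a percent of the genes in each set (y axis), for 4391 genes with a mean response within 0.25, 455 induced and 303 repressed genes. Dotted lines mark 1.5-fold. The induced genes form the broadest curve, which extends past both lines.

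The blunted class held neuronal activity genes of several kinds. Values of single genes below are FPKM in that same order: wild type without and with KCl, then cKO without and with KCl. Fold values of single genes are ratios of these FPKM, while the difference in response includes the added 1 FPKM. At low levels the fold values can therefore lie further apart than the difference. Bdnf, which encodes brain-derived neurotrophic factor, was at 0.734, 27.0, 1.12 and 12.4, so the KCl libraries were 36.7-fold above basal in wild type and 11.1-fold in the cKO. With 1 FPKM added its difference in response was −1.35 [−1.59, −1.11]. Pcsk1, the prohormone convertase that cleaves neuropeptide precursors, was at 0.933, 49.3, 0.704 and 19.7 (−1.10 [−1.49, −0.72]). For both genes the basal levels were low and the level after KCl was far higher in wild type, while Bdnf began somewhat higher in the cKO. Nrn1, a membrane-anchored protein that promotes neurite and synapse growth, was at 8.73, 43.9, 13.4 and 30.6 (−1.07), so it began higher and ended lower in the cKO. The neuropeptide gene Npb was at 0.234, 7.28, 0.309 and 3.29, with a wide counting interval (−1.03 [−1.71, −0.35]).

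Transcription factors formed a second group. Nr4a2, an orphan nuclear receptor and immediate early gene, was at 5.36, 145, 9.23 and 102 (−1.19 [−1.37, −1.01]), a 27.1-fold response in wild type and an 11.04-fold one in the cKO. Its knockout level was above wild type at basal KCl and below it after KCl. Nfil3, a leucine zipper repressor that acts in circadian and immune gene control, was at 17.7, 112, 16.7 and 46.4 (−1.17 [−1.33, −1.02]). Egr4, a zinc finger factor, was at 0.0549, 6.83, 0 and 2.33, listed at 0 in the cKO basal library. The AP-1 members Junb (3.81, 117, 5.46 and 85.9; −0.87) and Fosl2 (4.37, 59.8, 3.58 and 29.1; −0.79) were also blunted, and both stayed strongly induced in the cKO, by 15.7-fold and 8.11-fold. Nab1, a corepressor of the Egr factors, was at 6.65, 24.9, 8.55 and 19.3 (−0.67).

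The third group was made up of receptors and signalling genes. Gpr19, an orphan G protein-coupled receptor, was at 16.48, 53.6, 16.01 and 22.6 (−1.17 [−1.47, −0.87]): from equal basal levels it was 3.26-fold higher with KCl in wild type and 1.41-fold in the cKO. S1pr3, a receptor for sphingosine 1-phosphate, was at 3.97, 27.6, 8.06 and 22.0 (−1.18), and Gpr35 at 0.124, 10.2, 0.118 and 4.57 (−1.002). Dusp14, a phosphatase of MAP kinases, was at 4.66, 22.5, 5.02 and 11.9 (−0.96). Homer1, a postsynaptic scaffold with an activity-induced short isoform, was at 31.1, 133, 32.0 and 79.8 (−0.77 [−0.89, −0.65]). Zdbf2, an imprinted zinc finger gene, was at 1.964, 29.7, 2.72 and 16.9 (−1.10). Pisd-ps1 had the lowest value of any named induced gene (−3.36), but it is a pseudogene that shares sequence with its parent, so its level is uncertain.

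**Figure D3:**
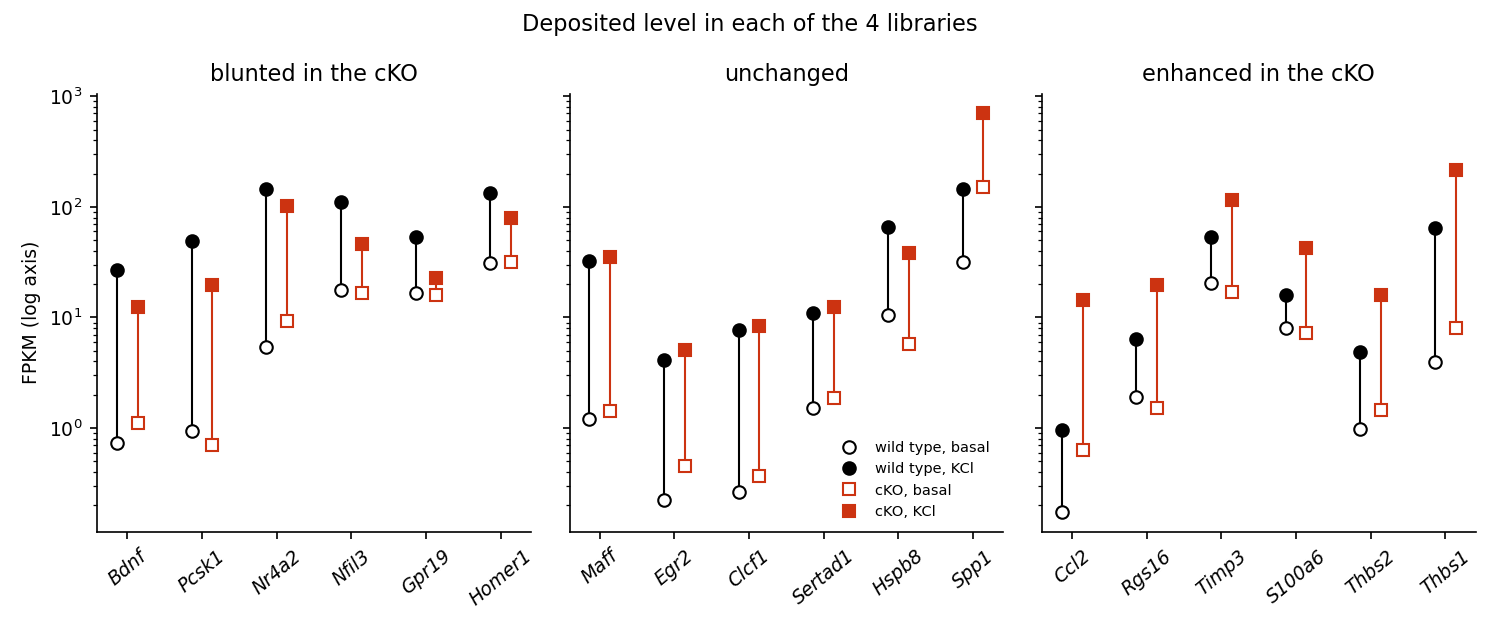
FPKM (log axis) in each library for 6 genes of each class; circles are wild type, squares cKO, open symbols basal and filled symbols KCl, with a line joining the libraries of a genotype. In the blunted panel the filled square sits below the filled circle for every gene, and in the enhanced panel it sits above. In the unchanged panel the lines of a gene have about equal length except for Egr2 and, to a lesser degree, Clcf1. Their lines are shorter in the cKO (11.06-fold against 18.5-fold for Egr2, 22.7-fold against 28.9-fold for Clcf1), as the axis shows FPKM without the added 1.

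The smaller response of the blunted class lay mostly in the level reached after KCl. Over the 68 genes the median log2 ratio of cKO to wild type was 0.10 at basal KCl and −0.66 after KCl. The cKO was at least 1.5-fold lower after KCl for 43 of the 68, and 41 of these had basal levels within 1.5-fold. In 7 genes the cKO was at least 1.5-fold higher at basal KCl. The part of the difference that lay after KCl was the larger one in 57 genes and the basal part in 11. The median log2 response was 1.84 in wild type and 1.09 in the cKO, where 32 of the 68 fell short of 2-fold. In FPKM gained with KCl, the cKO gained 44.4% of the wild-type amount at the median (interquartile range 38.05 to 52.8%). This share was 17.7% for Gpr19, 31.6% for Nfil3, 43.0% for Bdnf and 70.8% for Junb, while Pisd-ps1, of uncertain level, had no gain in the cKO. The blunted genes other than the 32 that fell short still reached 2-fold in the cKO. Since the 68 genes were chosen on the difference itself, these values describe how it arose and support nothing further. Egr4, Gpr35, Npb and Pisd-ps1 reached 5 FPKM in the wild-type KCl library alone, so they passed the level filter only through it. The sum of excitatory neuron markers was 0.96-fold wild type at basal KCl and 0.67-fold after KCl, with 1 of 15 markers higher in the cKO after KCl, and the part this played was not tested.

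**Figure D4:**
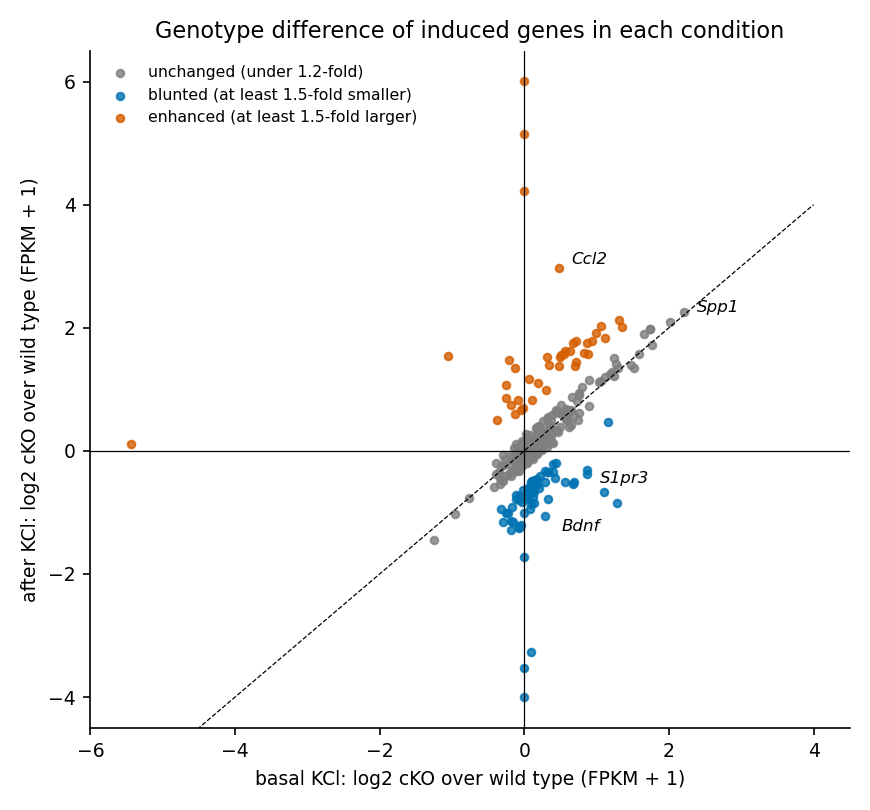
Log2 ratio of cKO to wild type at basal KCl (x axis) and after KCl (y axis) for the blunted, unchanged and enhanced induced genes, 1 point per gene. Genes on the dashed line have the same genotype difference in both conditions. Most blunted genes lie near 0 on the x axis and below 0 on the y axis, while the enhanced genes lie above the line. Points right of 0 on the x axis make up 47 of the 68 blunted and 26 of the 41 enhanced genes.

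Unchanged genes included strong immediate early responders. Maff, a small Maf transcription factor, was at 1.201, 32.6, 1.42 and 35.2 FPKM, 27.2-fold in wild type and 24.8-fold in the cKO, with a difference of −0.03 [−0.36, 0.30]. Egr2, a zinc finger factor, was at 0.223, 4.13, 0.459 and 5.07 (−0.01 [−0.54, 0.52]). The interval of Egr2 reaches nearly to 1.5-fold on either side, so its low counts leave room for a sizeable difference. Its value also depends on the added 1 FPKM, since its basal levels were below that. Without it, Egr2 was 18.5-fold above basal in wild type and 11.06-fold in the cKO. Under 2 other pseudocounts and 4 rescalings its difference ran from −0.50 to 0.15. Clcf1, a cytokine of the interleukin-6 family, was at 0.265, 7.65, 0.367 and 8.33, and Sertad1, a cell cycle regulator, at 1.51, 11.01, 1.87 and 12.5. Without the added 1 FPKM, Clcf1 was 28.9-fold above basal in wild type and 22.7-fold in the cKO. Tead1, a DNA-binding partner of YAP, was at 5.39, 27.1, 5.97 and 28.3, and Spty2d1, a histone chaperone, at 3.79, 25.4, 4.18 and 26.2. In these genes all 4 libraries paired off by treatment, with little between the genotypes.

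An equal fold response did not require equal levels. Spp1, the secreted phosphoprotein osteopontin, was at 32.0, 145, 152 and 699 FPKM, so the cKO was several times higher in both conditions while the responses were 4.54-fold and 4.59-fold (0.04 [−0.06, 0.15]). Hspb8, a small heat shock protein, was lower in the cKO in both conditions, at 10.5, 65.5, 5.73 and 38.1 (0.01 [−0.26, 0.27]). Over all 188 unchanged genes the median log2 ratio of cKO to wild type was 0.14 at basal KCl and 0.09 after KCl, and the FPKM gain in the cKO was 106% of wild type at the median (interquartile range 88.8 to 137%). The immediate early genes Npas4 (0.97, 75.7, 0.69 and 58.4; −0.15) and Egr1 (3.71, 28.8, 5.68 and 48.8; 0.24) also fell in this class, while Fos (2.40, 203, 3.69 and 224; −0.33) lay between the classes with a KCl level higher in the cKO. These 3 genes were chosen after their values were seen.

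Promoters of a few blunted and unchanged genes are printed as chosen examples that hold a sequence linked to activity response. No enhanced gene is printed, and the shares over the classes are given after the sequences. CREB, a factor activated by calcium signalling, binds the cAMP response element TGACGTCA and its shorter form TGACG. The sequences are RefSeq promoters of GRCm38.p6, from 250 bases before to 50 after a start site, written 5′ to 3′ on the strand of the gene, with TGACG on either strand in capitals (CGTCA is its reverse complement, and each full TGACGTCA holds 1 TGACG on each strand). Pcsk1 (chr13:75089607-75089906, plus strand) and Nr4a2 (chr2:57123954-57124253, minus strand) were blunted, and Maff (chr15:79347270-79347569, plus strand, 1 of its 3 listed promoters) was unchanged.
Pcsk1: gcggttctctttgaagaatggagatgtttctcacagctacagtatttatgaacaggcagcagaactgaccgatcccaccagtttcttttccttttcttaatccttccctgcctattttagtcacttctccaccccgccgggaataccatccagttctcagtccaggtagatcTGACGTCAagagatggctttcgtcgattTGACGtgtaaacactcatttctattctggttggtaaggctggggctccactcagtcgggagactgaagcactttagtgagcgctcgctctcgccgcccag
Nr4a2: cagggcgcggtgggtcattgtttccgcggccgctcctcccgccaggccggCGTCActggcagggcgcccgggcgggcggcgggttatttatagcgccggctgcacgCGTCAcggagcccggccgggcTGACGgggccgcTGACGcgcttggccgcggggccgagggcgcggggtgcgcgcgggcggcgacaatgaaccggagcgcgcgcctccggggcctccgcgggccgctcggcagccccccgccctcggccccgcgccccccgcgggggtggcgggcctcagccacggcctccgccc
Maff: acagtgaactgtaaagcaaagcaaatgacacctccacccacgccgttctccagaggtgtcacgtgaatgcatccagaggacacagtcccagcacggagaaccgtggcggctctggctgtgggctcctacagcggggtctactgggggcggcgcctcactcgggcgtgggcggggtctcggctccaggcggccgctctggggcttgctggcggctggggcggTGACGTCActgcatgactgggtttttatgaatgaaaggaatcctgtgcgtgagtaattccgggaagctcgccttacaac

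Pcsk1 holds 1 full element and 3 matches to TGACG, Nr4a2 holds 4 matches to TGACG and no full element, and Maff holds 1 full element and 2 matches. The blunted Pcsk1 and the unchanged Maff thus share the full element. Over the classes, TGACGTCA occurred in 7 of 57 promoters of blunted genes (12.3%; 43 of 68 genes had a promoter in the table), 7 of 195 of unchanged genes (3.59%; 151 of 188 genes) and 0 of 25 of enhanced genes (23 of 41 genes). It occurred in 5.28% of 417 promoters of induced genes, 3.15% of 10293 promoters of genes at 5 FPKM or more and 1.79% of all 32851 promoters. TGACG on either strand occurred in 45.6% of blunted, 31.8% of unchanged and 20.0% of enhanced promoters, against 32.1% for genes at 5 FPKM or more. The AP-1 element TGANTCA occurred in 8.77% of blunted promoters, 7.69% of unchanged ones and 1 of 25 enhanced ones, against 4.61% for genes at 5 FPKM or more. A match describes letters in this window and is not a bound site.

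The named enhanced genes included genes for matrix, proteolysis, the cytoskeleton and inflammation. Ccl2, a chemokine that attracts monocytes, was at 0.174, 0.960, 0.630 and 14.3 FPKM, and only the cKO KCl library was high (2.49 [1.97, 3.02]). Rgs16, which switches off G protein signalling, was at 1.91, 6.44, 1.51 and 19.8, a 3.37-fold response in wild type and a 13.1-fold one in the cKO (1.69 [1.38, 2.01]). Ier3, an immediate early gene that modulates cell survival, was at 2.63, 10.05, 3.59 and 28.0 (1.06 [0.66, 1.45]). In Rgs16 the basal level was slightly lower in the cKO, so the difference lay in the level after KCl.

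Several of the enhanced genes act in the extracellular matrix, although of the 17 measured genes of the matrix, protease and inhibitor list only 2 were past 1.5-fold. Timp3, an inhibitor of metalloproteinases, was at 20.4, 53.6, 17.0 and 114 FPKM (1.33 [1.18, 1.48]), lower than wild type at basal KCl and above it after KCl. Thbs1 and Thbs2 encode thrombospondins, secreted glycoproteins that promote synapse formation and regulate TGF-beta. Thbs1 was at 3.93, 63.7, 8.03 and 217 (0.88 [0.70, 1.06]), and Thbs2 at 0.982, 4.90, 1.47 and 15.9 (1.204 [0.95, 1.46]). Loxl2, a collagen cross-linking enzyme, was at 2.31, 5.25, 3.87 and 18.2 (1.06), and Sulf1, which trims heparan sulfate, at 0.442, 1.86, 1.04 and 7.24 (1.03). In each of them the cKO KCl library was the highest of the 4, which choosing genes with a larger cKO response favours.

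Calcium-binding, cytoskeletal and coagulation genes were also in the class. S100a6, a small calcium-binding protein, was at 7.96, 15.99, 7.18 and 42.4 FPKM (1.48 [1.06, 1.90]), and S100a4 of the same family at 4.16, 11.2, 12.1 and 47.9 (0.66 [0.13, 1.19]). Myl9, a regulatory myosin light chain, was at 4.30, 9.58, 9.18 and 35.5 (0.84 [0.33, 1.35]). Thbd, the thrombin receptor thrombomodulin, was at 1.01, 2.53, 2.31 and 11.2 (1.07), Vgll3, a cofactor of TEAD factors, at 0.774, 2.29, 0.858 and 6.35 (1.10), and Lrrc32, which tethers latent TGF-beta, at 0.455, 1.26, 1.06 and 5.67 (1.06). Basal KCl already separated the genotypes for S100a4 and Myl9, whereas S100a6 and Vgll3 began level. The heat shock genes Hspa1a (0.94) and Hspa1b (0.71) were also enhanced, but they are near-identical copies that can share reads, so their separate levels are uncertain.

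In the enhanced class, too, the difference lay mostly in the level after KCl, which was the larger part in 40 of the 41 genes, with the basal part larger in 1. Over these genes the median log2 ratio of cKO to wild type was 0.34 at basal KCl and 1.53 after KCl. The cKO was at least 1.5-fold higher after KCl for 39, of which 24 had basal levels within 1.5-fold, and it was at least 1.5-fold higher at basal KCl for 14 and lower for 2. The median log2 response was 2.12 in the cKO against 0.99 in wild type, where 22 of the 41 fell short of 2-fold. The cKO gained 369% of the wild-type FPKM at the median (interquartile range 297 to 450%, 35 genes with a wild-type gain of at least 1 FPKM). The 41 genes were chosen on the difference itself, so these values describe how it arose and support nothing further. Ccl2, Thbs2, Sulf1, Thbd, Vgll3, Lrrc32 and Hspa1a reached 5 FPKM in the cKO KCl library alone, so they passed the level filter only through it. Summed vascular and fibroblast markers were 2.58-fold wild type in the cKO at basal KCl and 3.44-fold after KCl, and summed microglia markers 2.02-fold and 2.19-fold. No blunted or enhanced gene was a member of the microglia, vascular and fibroblast, astrocyte, oligodendrocyte or cell cycle lists. Leaving out those short lists therefore could not change the counts of 68 and 41. Whether a different number of such cells lies behind the enhanced genes was not tested.

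Choosing on the mean response leaves out genes that responded in a single genotype. There were 97 genes at 2-fold or more in wild type whose mean was under 2-fold, and 40 of them were past 1.5-fold lower. Conversely 58 genes were at 2-fold or more in the cKO with a mean under 2-fold, and 16 were past 1.5-fold higher. Several of the largest differences sit here. Adcyap1, the gene of the neuropeptide PACAP, was at 2.89, 9.91, 3.03 and 3.95 FPKM, 3.43-fold in wild type and 1.301-fold in the cKO (−1.19 [−1.53, −0.86]). Scg2, a granin of dense-core vesicles, was at 29.3, 74.1, 25.8 and 32.3 (−0.99 [−1.12, −0.86]). In both the cKO KCl library stood only slightly above the basal ones. Siah2, a ubiquitin ligase, was at 10.5, 33.4, 10.7 and 14.3 (−1.19), and Kcna1, a voltage-gated potassium channel, at 2.63, 7.79, 2.16 and 2.24 (−1.24). The zinc finger factor Klf5 was at 5.85, 17.1, 7.46 and 7.97 (−1.32). For Kcna1 and Klf5 only the wild-type KCl library was high. Adcyap1 and Kcna1 reached 5 FPKM in the wild-type KCl library alone, so they passed the level filter only through it.

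In 53 genes (0.53% of all) the responses ran in opposite directions by at least 0.25 each. Lrrtm1, a synaptic adhesion protein that organizes excitatory synapses, was at 40.4, 75.7, 39.7 and 29.7 FPKM: equal at basal KCl, 1.87-fold higher with KCl in wild type and 0.748-fold in the cKO (−1.30 [−1.41, −1.18]). Its relative Lrrtm2 was at 19.1, 24.3, 16.4 and 11.5 (−0.81), and Rtn4rl2, a receptor of the Nogo receptor family, at 31.9, 40.7, 29.6 and 14.5 (−1.32). Neurod2, a transcription factor of excitatory neurons, was at 53.4, 78.4, 56.6 and 38.3 (−1.09). In each of them the cKO KCl library was the lowest and the wild-type KCl library the highest. Among genes in neither set the highest differences included Olfml2b, an olfactomedin family member at 2.55, 3.13, 2.93 and 10.7 (1.35 [1.07, 1.63]), and Pdgfrb, the PDGF receptor of pericytes and fibroblasts, at 4.26, 4.79, 8.40 and 20.7 (1.07 [0.89, 1.24]), with the cKO KCl library alone well above the rest. Pdgfrb is itself a vascular and fibroblast marker. Olfml2b reached 5 FPKM in the cKO KCl library alone, so it passed the level filter only through it.

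Genes repressed by KCl, 2-fold or more on the mean of both responses, numbered 303 (3.03%) and differed less. Their median difference was −0.005, and 196 (64.7%) were unchanged. Repression was at least 1.5-fold weaker in the cKO for 7 genes (2.31%, including 2 small RNAs) and at least 1.5-fold stronger for 16 (5.28%, including 8 small RNAs). Txnip, an inhibitor of thioredoxin that responds to glucose, was at 17.4, 3.71, 13.5 and 6.39 FPKM (0.99 [0.52, 1.47]), and Rcan2, a regulator of calcineurin, at 16.6, 4.19, 13.4 and 5.57 (0.63 [0.25, 1.01]). Both began lower and ended higher in the cKO. Stronger repression was seen for Tbr1, a T-box factor of deep-layer neurons, at 24.1, 14.1, 29.4 and 10.4 (−0.68 [−0.91, −0.45]), and for Bhlhe22, a factor of cortical projection neurons, at 155, 80.9, 202 and 69.1 (−0.60 [−0.66, −0.54]). Cdc42ep3, an effector of the GTPase Cdc42, was at 29.4, 12.6, 27.4 and 6.55 (−0.75). Gpr17, a receptor of the oligodendrocyte lineage, was at 73.6, 38.8, 35.9 and 10.8 (−0.74), and the 10 oligodendrocyte lineage markers summed to 623, 730, 393 and 352.

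Activity-regulated lists, which were chosen with earlier results of these data known, lay on the lower side. Over all genes the median was 0.02, with 4518 of 10000 below 0 and, as above, 2.42% past 1.5-fold lower and 1.04% higher. Over induced genes it was −0.13. The 4 rescalings of the libraries shifted all genes about alike and moved the median of all genes to between −0.07 and 0.03. None of them changed the sign of a list median given in this paragraph. Of 29 late activity-regulated genes at 5 FPKM or more, 10 were past 1.5-fold lower and 2 higher, with a median difference of −0.47. Among the 13 of these that were induced 4 were blunted, 1 unchanged and 2 enhanced. Of 25 immediate early genes 5 were lower and 1 higher (median −0.23), and among the 20 that were induced 8 were unchanged and 4 blunted, near the 41.3% and 14.9% of all induced genes. The late list therefore sat lower than the immediate early list, though they were not tested against each other. The 10 AP-1 and ATF factors were all below 0 (median −0.30), with Junb and Fosl2 past 1.5-fold. Of 9 Egr and Nr4a genes 4 were lower and none higher (median −0.55), and among the 7 induced ones 3 were blunted and 2 unchanged. Among their lower genes, Egr3 and Egr4 reached 5 FPKM in the wild-type KCl library alone, as did Adcyap1 and Kcna1 in the late list. These genes passed the level filter only through that library. The higher late gene Ptgs2 passed it only through the cKO KCl library. The 12 MAP kinase feedback genes had a median of −0.38, with Dusp14 and Dusp8 past 1.5-fold. Synaptic adhesion and plasticity genes were below 0 in 20 of 23, 5 of them past 1.5-fold (median −0.20).

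Lists of matrix and cytoskeletal genes lay on the higher side. Of 16 serum response and YAP target genes 13 were above 0 (median 0.34), 2 past 1.5-fold and none lower. Among 12 induced ones 6 were unchanged and Myl9 and Thbs1 enhanced, beside 41.3% and 9.01% of all induced genes. Tagln, an actin-binding protein, was just short of the threshold, at 3.48, 22.3, 8.34 and 71.6 FPKM (0.58). For 17 matrix, protease and inhibitor genes the median was 0.16, with 2 higher and none lower, and for 13 S100a and annexin genes 0.25, with 2 higher and none lower. The 10 cytokine, chemokine and NF-kB genes had a median of 0.29, with Ccl2 alone past 1.5-fold. None of these medians changed sign under the 4 rescalings.

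Markers of cell types and housekeeping lists were described in the same way. The median difference of the excitatory neuron markers was −0.33, with Neurod2, Neurod6, Tbr1 and Bhlhe22 past 1.5-fold lower, and none of the 15 was induced. Interneuron markers were lower with KCl in either genotype, with median responses of −1.32 (wild type) and −1.23 (cKO) on the log2 scale, and had a median difference of −0.05 with none past 1.5-fold. Cholesterol synthesis genes had median responses of 0.66 and 0.37 and a median difference of −0.16, again with none past 1.5-fold. The median was 0.01 for 14 endoplasmic reticulum stress genes and 0.03 for 20 presynaptic genes, both near that of all genes, and both changed sign under at least 1 rescaling, as did the median of all genes. Of 13 heat shock genes 3 were enhanced (median 0.10), namely Hspa1a, Hspa1b and Hspb1. Hspb1 reached 5 FPKM in the cKO KCl library alone, and its difference of 0.90 depends on the added 1 FPKM. Without it, Hspb1 was 8.90-fold above basal in wild type and 8.49-fold in the cKO. The 25 BAF complex subunits had a median of 0.05, which changed sign under 1 rescaling, and none was past 1.5-fold. The median was 0.22 for vascular and fibroblast markers (6 of 6 measured above 0, with Pdgfrb past 1.5-fold), −0.30 for oligodendrocyte lineage markers (8 of 8 below 0), −0.10 for astrocyte markers and −0.09 for cell cycle genes. For microglia markers (0.08, with Aif1 past 1.5-fold higher) and G protein regulators (0.07, with Rgs16 past 1.5-fold higher and Rgs2 lower) it changed sign under 1 rescaling. It was 0.13 for ribosomal protein genes, −0.06 for neuropeptides, granins and processing enzymes, where Pcsk1, Adcyap1 and Scg2 were past 1.5-fold lower, and −0.14 for neurotrophins and secreted neuronal ligands, where Bdnf and Nrn1 were lower and Bmp4, a bone morphogenetic protein, higher (5.58, 2.80, 0.776 and 0.877 FPKM; 0.87).

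**Figure D5:**
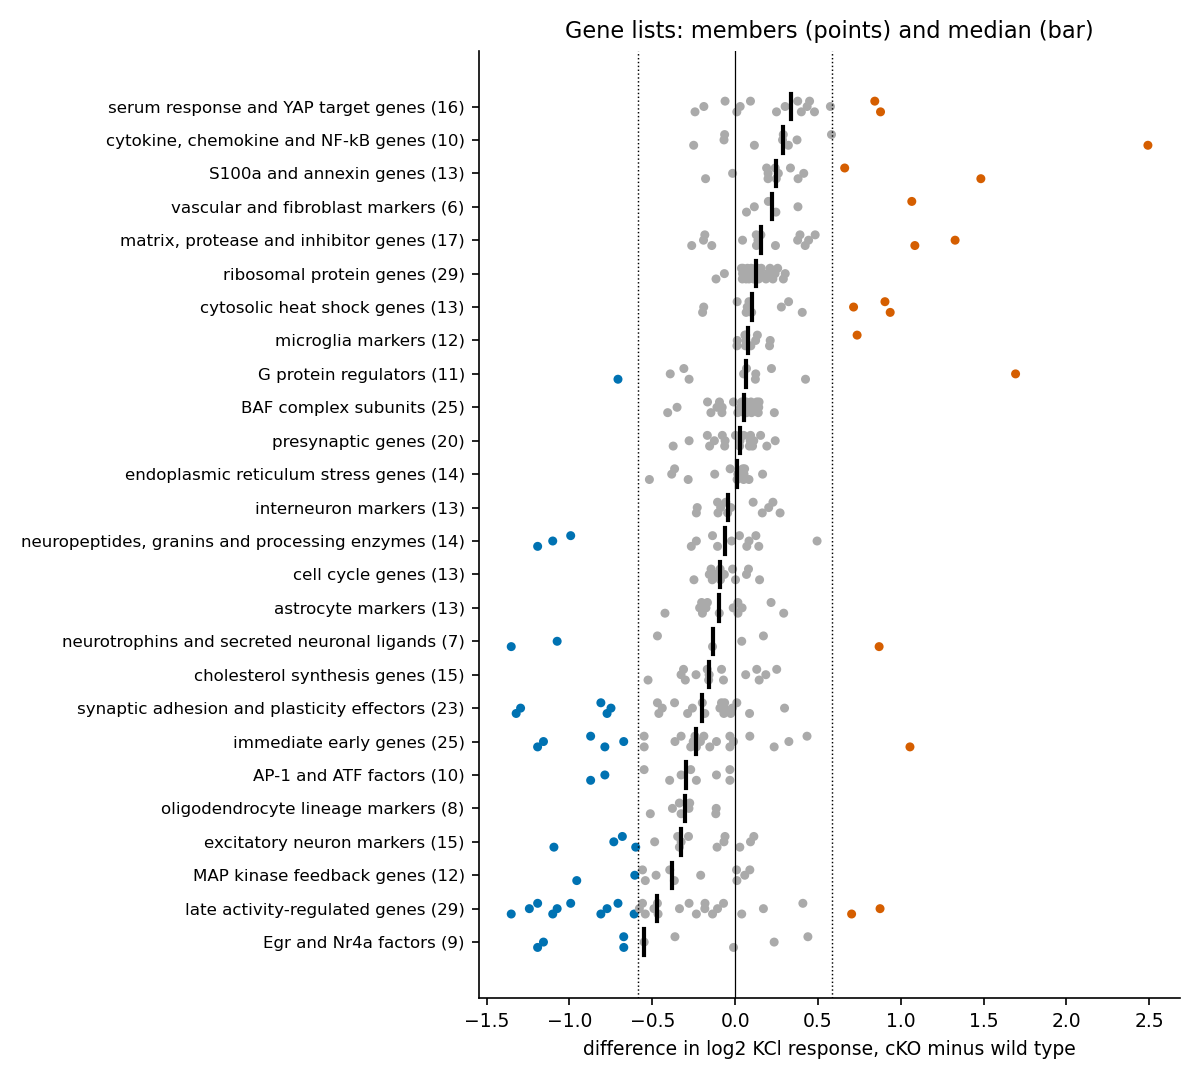
Difference in log2 KCl response (cKO minus wild type, x axis) for the members of each gene list at 5 FPKM or more, with the number of members in brackets; points are genes, black bars medians, and dotted lines 1.5-fold. Egr and Nr4a genes and late activity-regulated genes have the lowest medians (−0.55 and −0.47) and serum response and YAP target genes the highest (0.34).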

How the data were processed

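RNA was sequenced from 4 libraries, 1 per group. Per the submitters' processing notes, reads were aligned with TopHat 1.3.2 to mm9. Program, annotation and filters behind the gene values: not given in the sources used here. The deposited values were read as FPKM from the values themselves: they are not whole, and low values are multiples of a step that depends on the gene. Depth and counting intervals were approximated from that step and GENCODE M21 transcript lengths (99.3% of genes).

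Groups came from the labels. Genes that reached 5 FPKM in any library were kept, 1 FPKM was added before log2, and genes were classed by size. Sequences came from RefSeq GRCm38.p6 promoters, whose build differs from mm9. The 137 named genes are Smarca4, Bdnf, Adcyap1, Nr4a2, Lrrtm1, Ccl2, Rgs16, the extremes of each class, the least different strong responders and up to 4 genes of each of 26 lists, without small RNAs, unnamed models and sex-marking genes. Some of them are not reported here. Members and lists were chosen with earlier results of these data known. Alternatives covered pseudocount, level filter, scaling, the choice of induced genes and size thresholds. Calculations used Python 3.11.15, NumPy 2.4.6, pandas 2.3.3 and matplotlib 3.10.9, and were tested on simulated data.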

Additional observations from a re-analysis of the deposited data

Results flagged for a closer look

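Some named genes changed direction between the groups in these single libraries, and none of these differences was tested. In 5 named genes the genotypes responded to KCl in opposite directions by at least 0.25 (log2) each. Smaller opposite responses are not listed. The difference in response (cKO minus wild type, log2) was −1.30 for Lrrtm1, −1.09 for Neurod2, −1.32 for Rtn4rl2 and −0.81 for Lrrtm2, where the wild-type library was higher with KCl and the cKO library lower, and 0.74 for the microglial gene Aif1, where it was the reverse. Rescaling the libraries to the ribosomal list ended the opposite signs of Aif1, Lrrtm2 and Rtn4rl2, and none of the 4 rescalings ended those of Lrrtm1 and Neurod2.

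In 17 other named genes the cKO-to-wild-type ratio switched sign between the conditions with a size of at least 0.25 (log2) in each. These signs stayed opposite under each of the 4 rescalings. The cKO was above wild type at basal KCl and below it after KCl for Bdnf (−1.35), Klf5 (−1.32), Nr4a2 (−1.19), S1pr3 (−1.18), Zdbf2 (−1.10), Nrn1 (−1.07), Junb (−0.87), Neurod6 (−0.73), Rgs2 (−0.71), Tbr1 (−0.68), Nab1 (−0.67) and Dusp6 (−0.54). It was below at basal KCl and above after KCl for Timp3 (1.33), Tpt1 (1.05), Txnip (0.99), Rcan2 (0.63) and Hnmt (0.61). Tpt1 has many processed copies, so its level is uncertain.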

How the results depend on the processing

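The counts moved with the rule that chose the genes, and with 1 library per group no replicate could be left out. No paired analysis was possible because each group has 1 library. The reported median over induced genes was −0.13, with 68 blunted, 188 unchanged and 41 enhanced genes, and 7 repressed genes with weaker and 16 with stronger repression. Chosen on the wild-type response, the median was −0.25, with 108 blunted and 19 enhanced, and repressed genes had a median of 0.10, with 13 weaker and 6 stronger. Chosen on the cKO response, the median turned to 0.0566, with 36 blunted, 57 enhanced, 2 weaker and 34 stronger. By construction each choice takes genes with a large response in the genotype used. A pseudocount of 5 gave 28 blunted, 106 unchanged, 23 enhanced, 2 weaker and 3 stronger, and one of 0.1 gave 19 weaker and 28 stronger. A level filter of 1 FPKM, and none at all, gave 62 enhanced and 11 weaker, and a filter of 10 gave 4 weaker and 10 stronger. Rescaling to the ribosomal list gave 75 unchanged and 36 stronger, and to the presynaptic list 406 unchanged and 3 weaker. Induced or repressed at 4-fold left 14 blunted, 27 unchanged, 15 enhanced, 1 weaker and 4 stronger, and a size of 2-fold left 19 blunted, 20 enhanced, 2 weaker and 7 stronger. Without unnamed models and small RNAs 7 were stronger. Of 2 alternatives chosen after seeing the data, leaving out small RNAs gave 8 stronger, and leaving out genes 1.5-fold apart at basal KCl gave 25 enhanced and 9 stronger. Comparing linear FPKM gains gave 105 blunted and 124 enhanced. On that linear scale enhanced genes outnumber blunted ones, which turns the balance reported on the log scale. Of the 137 named genes 68 were past 1.5-fold, and all 68 kept their sign under 2 other pseudocounts and 4 rescalings, but only 46 stayed past 1.5-fold in every one of these settings. The cause of the other shifts was not tested.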
